A study of Mus musculus with 20 samples.

Results

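Fibroblasts were examined in the mouse single-cell libraries of XEN cells reprogrammed toward iPS cells. A cell with 500 or more detected genes was taken as a fibroblast when the UMIs (unique molecular identifiers, one per captured RNA molecule) of Col1a1, Col1a2, Col3a1, Postn, Thy1, Dcn, Lum, Twist2 and Fbn1 summed to 5 or more and to 0.1% or more of its UMIs. Across 8 libraries, 2440 of 38399 such cells met the rule (6.35%), out of 113288 cells with 500 or more genes in all 20 libraries of the series. The cells were thus chosen by their measured collagen and mesenchyme UMIs, and the differences between these cells and the others are therefore given as a description, without a test.

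The study followed XEN cells, stem cells of the extraembryonic endoderm, on their way to pluripotency. The 3F-4 XEN line carried Col1A1TetO-OKSmCh/TetO-OKSmCh, R26M2rtTA/M2rtTA and Oct4-GFPTg/Tg. These are a doxycycline-inducible Oct4, Klf4, Sox2 and mCherry cassette, a reverse transactivator and a reporter of endogenous Oct4. Every group used here is described as derived from this line. Per the methods, XEN cells were given doxycycline, sorted for mCherry and plated on mouse embryonic fibroblasts that mitomycin C had stopped from dividing, in serum and LIF with doxycycline, ascorbic acid and a GSK3 inhibitor. Collection took place after 7, 14 or 28 days, each in 2 replicates, and for each of these libraries populations sorted by SSEA1 and Oct4-GFP were mixed back in similar proportions, so a share of fibroblasts is a share of the sorted mix and not of the plate. XEN-iPS cells, also in 2 replicates, were sorted at the end of reprogramming, replated on the same kind of feeders in serum and LIF without doxycycline, ascorbic acid or inhibitor, and collected 7 days later. The medium, the culture history and the sorting therefore differed together between XEN-iPS and the reprogramming days and cannot be told apart. The replicates are described as technical duplicates. If so, the tests below measure the spread between libraries and not between independent cultures. The main tests below take their spread from the XEN-iPS pair, and these 2 libraries differed in Y-linked UMIs, as given below. Whether they came from the same culture was not tested, so the kind of spread in the tests is not settled. The genotype and the sex of the feeder embryos are not given in the sources used here.

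Feeder fibroblasts are plated under stem cells because they hold them to the dish with their matrix and release LIF, Wnt antagonists, growth factors and other signals into the medium. Fibroblasts make the fibrillar collagens and the enzymes that crosslink them, and they carry transcription factors of the embryonic mesenchyme. A fibroblast that has stopped dividing after DNA crosslinking keeps p53 targets active and often secretes chemokines, proteases and acute-phase proteins, a set known as the senescence-associated secretory phenotype.

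The fibroblasts were spread very unevenly over the libraries. Day 7 replicate 1 held 235 of 2900 cells (8.10%; exact 95% interval 7.14 to 9.16) and day 7 replicate 2 held 9 of 5501 (0.164%). At day 14 there were 24 of 5059 cells (0.474%) in replicate 1 and 10 of 6233 (0.160%) in replicate 2. At day 28 there were 58 of 5639 (1.03%) in replicate 1 and 1 of 1983 (0.0504%) in replicate 2. XEN-iPS replicate 1 held 141 of 4259 (3.31%), and XEN-iPS replicate 2 held 1962 of 6825 (28.7%; 27.7 to 29.8), which was 80.4% of all fibroblasts. The duplicates of every condition thus differed by more than the counting error. Both XEN-iPS libraries lay above both day 14 and both day 28 libraries, while the day 7 libraries lay on either side of XEN-iPS replicate 1. Since the reprogramming days were sorted mixes, no order of the plates could be read. Intervals cover counting error only.

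**Figure D1:**
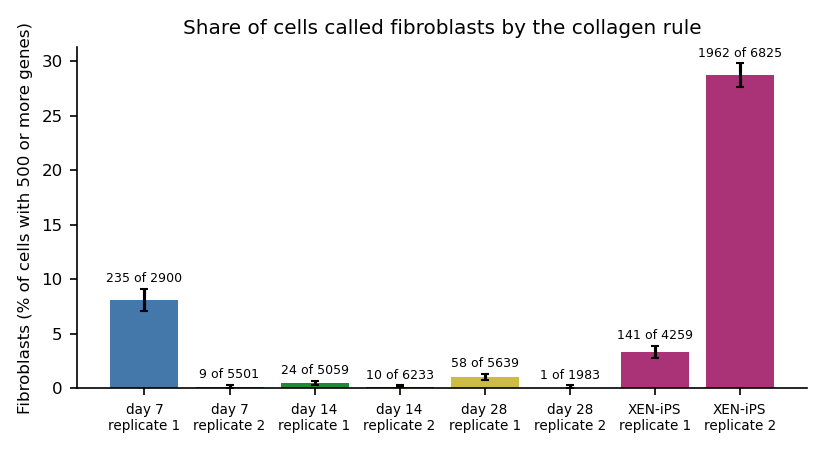
Share of cells (%) that met the collagen rule in each of the 8 libraries; bars are shares, error bars are exact 95% binomial intervals, and the numbers above the bars are fibroblasts of cells. XEN-iPS replicate 2 stands at 28.7% and the other 7 libraries between 0.0504% and 8.10%.

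The starting XEN libraries, which per the methods also came from feeder plates, held 0 of 13097 cells, which allows a share of up to 0.0229%. The 478 fibroblasts outside XEN-iPS replicate 2 had median depths, by library, from 7013.5 to 20330 UMIs, against 9810.5 in that library. The UMIs summed over fibroblasts ran from 20330 in day 28 replicate 2, a single cell, to 20793129 in XEN-iPS replicate 2. Libraries shared at most 105 cell barcodes and no 2 libraries shared one among fibroblasts. Because 3 libraries held fewer than 20 fibroblasts, the tests used the other 5 (2420 cells), and the small libraries are shown beside them.

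The rule drew its line through a continuum. The median share of UMIs from the 9 rule genes was between 0.205% and 0.425% in 7 libraries and 1.37% in the 1 fibroblast of day 28 replicate 2; 768 fibroblasts lay under 0.2% and 80 reached 1%. In XEN-iPS replicate 2 the 568 fibroblasts just inside the threshold, at under 0.2%, had Thbs1 at 5089 CPM (UMIs of a gene per 1000000 UMIs) and Lox at 882 CPM, while the 281 cells just outside, at 0.05% to 0.1%, had 3133 and 589.7 CPM. Those cells with no rule UMI in the same library had 111 and 30.5 CPM. In day 7 replicate 1 the 57 cells just outside had Thbs1 at 1066 CPM against 1787 CPM in the 101 just inside. Some of the cells counted here as others thus had fibroblast genes well above the level of cells with no rule UMI, though in these 2 libraries below that of the cells just inside. In the smaller libraries genes went either way. In day 28 replicate 1 the 24 cells just inside and the 17 just outside had Lox at 182 and 67.3 CPM, Tnc at 411 and 128 CPM, Thbs1 at 957 and 723 CPM and Prrx1 at 296 and 354 CPM, while the pluripotency list summed to 137.9 and 751 CPM. In day 14 replicate 1 the 11 cells just inside and the 11 just outside had Thbs1 at 2429 and 1551 CPM, Lox at 149 and 185 CPM and Prrx1 at 248 and 358 CPM, and the endoderm list summed to 59.5 and 519 CPM. In XEN-iPS replicate 2, 61.0% of the other cells held at least 1 rule UMI, against 7.88% to 28.6% in the other 7 libraries. There, 382 other cells reached 0.1% of UMIs and missed the rule by having under 5 rule UMIs, against 0 to 31 in the other 7.

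The collagen genes of the rule are given for their level only. Col1a1, a chain of type I collagen, stood at 1123 and 610.5 CPM in the day 7 replicates, at 712 and 919.6 CPM at day 14, at 871.5 and 4820 CPM at day 28, and at 453.6 and 1061 CPM in XEN-iPS. Col1a2, its partner chain, stood at 1370 and 2052, 1368 and 707.4, 1350 and 4968, and 690.2 and 1113 CPM in the same order. Postn, a matricellular protein of remodelling tissue, ran from 126 to 343 CPM over the 8 libraries. Col3a1 ran from 116 to 316 CPM in 7 libraries and stood at 2607 CPM in the 1 fibroblast of day 28 replicate 2.

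Genes that the rule left out also marked these cells as fibroblasts. Of 21 other fibroblast markers, 19 were higher in the fibroblasts than in the other cells in all 5 libraries with 20 or more of them, where 28.8% of 10147 genes at 10 CPM or more were. These markers summed to between 7358 and 14840 CPM in the fibroblasts and to between 220 and 1415 CPM in the other cells; with all 8 libraries 17 markers were higher throughout. These values come from the same cells that the rule chose and are a description.

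Lox, the enzyme that crosslinks collagen and elastin, stood at 314 and 316 CPM at day 7, at 207 and 265 CPM at day 14, at 232 and 492 CPM at day 28, and at 976 and 1277 CPM in XEN-iPS. It was at most 97.0 CPM in the other cells of any library. Both XEN-iPS libraries lay above the 6 others, yet the 5-library comparison with day 7 did not pass (log2 fold change 1.69 ± 0.57 SE, adjusted p = 0.0866 by edgeR). Thbs1, the matrix glycoprotein thrombospondin 1, stood at 2016 and 1663, 2732 and 327, 1288 and 1476, and 3023 and 7094 CPM in the same order. It was at 481 CPM in the other cells of XEN-iPS replicate 2 and at 5.99 to 54.0 CPM in those of the other libraries. For cells thinned to 2000 UMIs, a Thbs1 UMI was found in 78.4% of 231 fibroblasts and 6.27% of 1500 other cells of day 7 replicate 1, and in 93.1% of 1500 fibroblasts and 27.9% of 1500 other cells of XEN-iPS replicate 2; without thinning the values were 94.5% and 26.2%, and 96.2% and 67.2%. Cells with under 2000 UMIs were left out, 4 fibroblasts and 162 others in the former library and 117 and 966 in the latter.

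Several genes outside the rule kept a wide gap to the other cells in every library. Among genes outside the rule at 100 CPM or more in the fibroblasts of every library, the metalloprotease Pappa, which frees IGF from its binding proteins, had the highest ratio to the other cells in its lowest library, 15.2-fold. It ranged only from 116 to 197 CPM over the 8 libraries. Thbs1 (14.7-fold), the collagen V chain Col5a1 (14.3-fold) and Lox (13.2-fold) were also among the highest. Of the first 20 such genes, Prrx1, a transcription factor of limb and craniofacial mesenchyme, ran from 265 to 639 CPM with a lowest ratio of 8.53-fold. The proteoglycan biglycan (Bgn) and fibronectin (Fn1) were also among them, at lowest ratios of 9.25-fold and 6.94-fold.

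**Figure D2:**
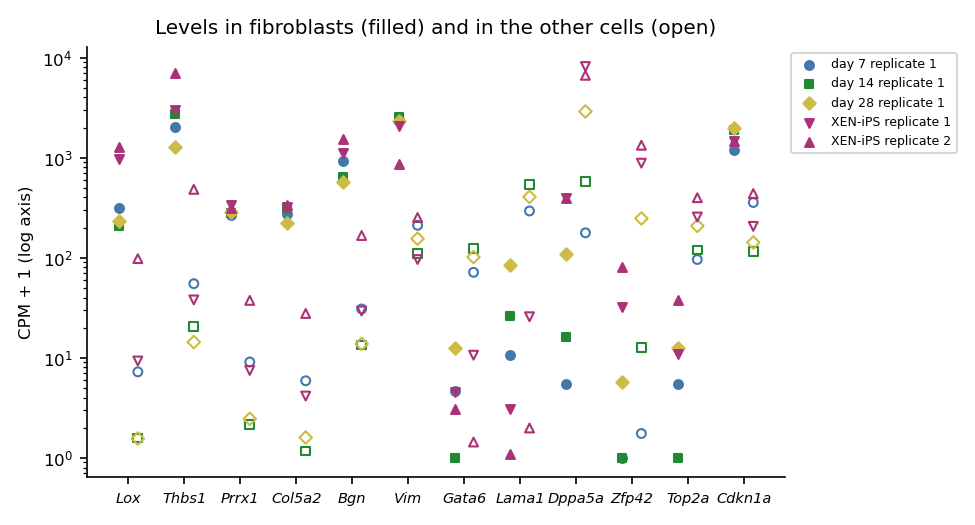
Level (CPM + 1, log axis) of 12 genes in the fibroblasts (filled) and in the other cells (open) of the 5 libraries with 20 or more fibroblasts; each symbol is a library. Lox, Thbs1, Prrx1, Col5a2, Bgn and Vim are higher in the fibroblasts of each library, Lama1, Dppa5a, Zfp42 and Top2a lower, and Cdkn1a higher; Gata6 is lower in the fibroblasts of 4 libraries and higher in XEN-iPS replicate 2, at 2.07 against 0.439 CPM.

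Markers of the lineages under conversion were mostly lower in the fibroblasts than in the other cells. The endoderm factor Gata4 was at 0 to 8.84 CPM in the fibroblasts of the 8 libraries and at 57.6 to 100 CPM in the other cells of the reprogramming days. Dppa5a, a gene of pluripotent cells, was at 0 to 186 CPM in the fibroblasts of the reprogramming days and at 394 CPM in both XEN-iPS libraries, where the other cells had 8139 and 6658 CPM. Of 15 endoderm markers 9 and of 12 pluripotency markers 8 were lower in the fibroblasts in all 5 libraries. Of 10147 genes at 10 CPM or more in any of these libraries 24.9% were, while the lists were not limited by level. In XEN-iPS replicate 2, whose other cells had few endoderm UMIs, the endoderm list summed to 66.3 CPM in the fibroblasts and to 34.0 CPM in the other cells. Part of the barcodes also held some UMIs of these lineages. Of the fibroblasts, 710 carried 3 or more UMIs of a set of pluripotency genes or of endoderm factors. These were 56 of 141 in XEN-iPS replicate 1 and 639 of 1962 in replicate 2, against 2 of 235 in day 7 replicate 1. The pluripotency list summed to 496 and 580 CPM in the fibroblasts of the XEN-iPS replicates, and Dppa5a was 394 CPM of this in both. In XEN-iPS replicate 2 these mixed barcodes had a median of 12322 UMIs and the rest 8728. Doublets were not removed here, and RNA carried over from other cells was not estimated, so the source of these UMIs was not tested.

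Markers of other cell types that a feeder preparation can hold were at 0 or low for some types and not for others. The 4 keratinocyte markers summed to at most 0.0962 CPM, the 6 endothelial markers to at most 15.2 CPM and the 6 macrophage markers to at most 26.5 CPM in any library. The 6 glial and neuronal markers summed to between 0 and 366 CPM, and Tubb3, a tubulin of neurons, reached 50.5 CPM in day 14 replicate 1. Acta1, skeletal muscle actin, was at 614 CPM in day 7 replicate 1 and at 341 CPM in day 28 replicate 1, while Myod1 was at 0 in all 8 libraries, and the 8 skeletal muscle markers summed to at most 635 CPM. The 6 osteoblast markers found in the files summed to 108 and 1779 CPM at day 7, 167 and 248 CPM at day 14, 613 and 0 CPM at day 28, and 1910 and 1308.5 CPM in XEN-iPS. Most of this was osteopontin (Spp1), at 1861 and 1266 CPM in XEN-iPS, where the other cells had 126 and 288 CPM. UMIs of sex-linked genes split the fibroblasts: in XEN-iPS replicate 2, 674 fibroblasts had UMIs of Y-linked genes without Xist, 342 had Xist without them and 22 had both. In day 7 replicate 1 the numbers were 160, 8 and 0, and in day 28 replicate 1 they were 20, 15 and 0. Y-linked UMIs alone were also found in 1930 of 4863 other cells of XEN-iPS replicate 2 (59.0 CPM in the other cells, 77.9 CPM in the fibroblasts), against 126 of 4118 in replicate 1 (3.10 and 156 CPM).

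The fibroblasts kept few transcripts of dividing cells. The 22 G2/M genes summed to 76 to 303 CPM in the fibroblasts of the 5 libraries and to 1179 to 2253 CPM in the other cells. Of these genes 21 of 22 were lower in all 5, as were 19 of 22 S phase genes, against 24.9% of 10147 genes at 10 CPM or more. After thinning, Top2a, the topoisomerase of dividing cells, was detected in 0.433% of fibroblasts against 12.6% of other cells in day 7 replicate 1, and in 3.73% against 40.3% in XEN-iPS replicate 2; unthinned the values were 5.96% against 45.9% and 13.7% against 59.1%. Cdkn1a, the p53 target that blocks the cell cycle, ran from 1200 to 2800 CPM over the 8 libraries and from 112 to 437 CPM in the other cells. The 26 p53 targets summed to 6180 to 7352 CPM in the fibroblasts of the 5 libraries and to 2591 to 4946 CPM in the other cells. Of these targets 17 of 26 were higher in all 5, against 28.8% of the same 10147 genes. Cdkn2a, the locus of the p16 and p19 cell cycle brakes, was at 338 to 1085 CPM against 68.7 to 135 CPM. HOX genes, which record the position of a cell along the body, summed to 277 to 550 CPM against 9.80 to 63.5 CPM in the 5 libraries, and 19 of 39 were higher in all 5, against the same 28.8%.

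Comparisons between conditions were made within the fibroblasts, on UMIs summed over the fibroblasts of each library, with edgeR's quasi-likelihood test. A gene was called at an adjusted p under 0.05 and a change of at least 1 on the log2 scale. In the 5-library fit only the XEN-iPS condition had a duplicate, so the single day 7, day 14 and day 28 libraries were assumed to vary as the XEN-iPS pair did, with 1 residual degree of freedom. The 3 comparisons share day 7 replicate 1. In summed UMIs, fewer expressing cells and less RNA per cell cannot be told apart, and many values of single genes rest on a single cell, above all in the libraries with few fibroblasts; the UMIs held by 1 cell are given for the genes where this bears most.

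Against day 7, 13 of 9583 genes were called at day 14 (0.136%), 10 higher and 3 lower, and 404 had an unadjusted p under 0.05. At day 28, 42 genes were called (0.438%), 31 higher and 11 lower, with 409 at an unadjusted p under 0.05. In XEN-iPS 286 genes were called (2.98%), 223 higher and 63 lower, with 938 at an unadjusted p under 0.05. The median log2 change over all genes was -0.11, -0.05 and 0.04. These counts rested on day 7 replicate 1: with all 8 libraries, an alternative chosen after seeing the data, 14, 9 and 62 genes were called, and without day 7 replicate 1 the numbers were 0, 2 and 0. Of the 62, 61 were among the 286.

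The summed level of the senescence-associated secretions differed widely between the duplicates of day 7 and of day 14, whose replicate 2 holds 9 and 10 fibroblasts. The 32 listed genes summed to 4755 and 21778 CPM at day 7, to 5564 and 10204 CPM at day 14, to 7171 and 7870 CPM at day 28, and to 15235 and 15239 CPM in XEN-iPS. Like sums did not mean like genes: day 28 replicate 2 is 1 cell, and between the day 28 pair Cxcl1 stood at 228 and 2656 CPM and Mmp13 at 50.2 and 0 CPM. Replicate 2 of day 7 was the highest library and replicate 1 the lowest, so the groups overlapped. In the 5-library fit, 14 of the 31 genes tested were called higher and 1, Igfbp5, lower in XEN-iPS than at day 7, against 2.33% and 0.657% of all genes. The median log2 change was 1.38 against 0.04 over all genes. The gene lists, here and below, were chosen with earlier results of these data known, so their counts are a description.

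Promoter sequences are shown for 3 of the 14 genes called higher, a neutrophil chemokine whose promoter holds a κB-type motif and 2 genes whose promoters do not hold the form searched, since these genes differed widely between the duplicates of day 7. Each is 300 bases from RefSeq (GRCm38.p6), 5′ to 3′ on the strand of the gene, and capitals mark the motif searched on both strands, GGGA, any base, then TTTCC, a letter pattern of NF-κB sites. Cxcl1 lies on the plus strand at chr5:90890995-90891294, Ccl20 on the plus strand at chr1:83116516-83116815 and Saa3 on the minus strand at chr7:46715627-46715926.
Cxcl1: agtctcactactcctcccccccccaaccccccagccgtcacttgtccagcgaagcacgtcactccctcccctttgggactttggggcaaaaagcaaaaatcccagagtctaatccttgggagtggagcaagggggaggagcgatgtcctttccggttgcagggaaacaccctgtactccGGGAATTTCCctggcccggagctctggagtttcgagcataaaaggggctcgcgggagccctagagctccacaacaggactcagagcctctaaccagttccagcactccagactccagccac
Ccl20: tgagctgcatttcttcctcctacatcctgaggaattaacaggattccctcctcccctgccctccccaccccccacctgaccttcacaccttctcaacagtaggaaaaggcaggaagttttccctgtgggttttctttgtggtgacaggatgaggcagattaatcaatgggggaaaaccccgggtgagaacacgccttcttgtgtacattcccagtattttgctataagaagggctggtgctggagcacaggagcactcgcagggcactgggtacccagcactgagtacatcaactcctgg
Saa3: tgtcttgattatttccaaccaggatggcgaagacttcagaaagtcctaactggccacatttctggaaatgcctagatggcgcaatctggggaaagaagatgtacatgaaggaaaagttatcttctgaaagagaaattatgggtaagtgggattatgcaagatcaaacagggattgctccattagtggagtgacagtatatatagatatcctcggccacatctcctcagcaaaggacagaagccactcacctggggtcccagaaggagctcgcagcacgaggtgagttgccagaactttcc
On either strand, 135 of 32851 mouse promoters of this length held the motif (0.411%), and of the 11 called genes of the list that had an entry, Cxcl1 and Il6 held it. Other forms of the motif were tried before this one was shown, so the match is a description.

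Saa3, an acute-phase apolipoprotein, stood at 56.2 and 6652 CPM at day 7, at 0 and 2529 CPM at day 14, at 0 in both day 28 libraries, and at 1728 and 3241 CPM in XEN-iPS. Few cells carried these values on the reprogramming days: in day 7 replicate 1 a single fibroblast held 197 of 199 Saa3 UMIs, and in day 7 replicate 2 a single fibroblast held 583 of 632. In XEN-iPS replicate 2, 1599 of 1962 fibroblasts had a Saa3 UMI, and so did 70.1% of the other cells, while in XEN-iPS replicate 1 the numbers were 69 of 141 and 16.2%. Against day 7 the 5-library change in XEN-iPS was 5.30 ± 0.72 SE on the log2 scale (adjusted p = 1.07e-10), and with all 8 libraries it was -0.34. Without the fibroblast that held 197 of the day 7 replicate 1 UMIs, an alternative chosen after seeing the data, it was 11.88 (adjusted p = 1.08e-25).

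Cxcl1, Cxcl5 and Ccl20 were far higher in replicate 2 of day 7 and of day 14 than in replicate 1, but single cells carried much of this. Among the 9 fibroblasts of day 7 replicate 2, the cell with the most UMIs of each gene held 148 of 259 for Cxcl1, 39 of 65 for Cxcl5 and 14 of 16 for Ccl20. Among the 10 of day 14 replicate 2, that cell held 75 of 96 for Cxcl5 and 22 of 22 for Ccl20. Cxcl1, which draws neutrophils, stood at 65.5 and 2726 CPM at day 7, at 20.2 and 831 CPM at day 14, at 228 and 2656 CPM at day 28, and at 173 and 536 CPM in XEN-iPS. Replicate 2 was the higher of each pair for Cxcl1. Cxcl5, another neutrophil chemokine, was at 2.26 and 684 CPM at day 7, at 5.05 and 849 CPM at day 14, at 0 in both day 28 libraries, and at 313 and 526 CPM in XEN-iPS. Ccl20, the ligand of CCR6, was at 0.282 and 168 CPM at day 7, at 0 and 195 CPM at day 14, at 0 at day 28, and at 271 and 244 CPM in XEN-iPS.

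In the 5-library fit Ccl20 and Cxcl5 had the largest increases among the genes named by rule for XEN-iPS, 9.59 ± 0.91 SE (adjusted p = 2.38e-22) and 7.36 ± 0.77 SE (adjusted p = 4.4e-18) on the log2 scale. With all 8 libraries they fell to 2.88 and 0.56 and lost the call (adjusted p = 0.481 and 0.993). Ccl20 was above all 6 libraries of the reprogramming days in both XEN-iPS libraries, and Cxcl5 was not. The interstitial collagenase Mmp13 was at 7.63 and 1189 CPM at day 7, at 5.05 and 301 CPM at day 14, at 50.2 and 0 CPM at day 28, and at 392 and 331 CPM in XEN-iPS. A single fibroblast held 86 of its 113 UMIs in day 7 replicate 2 and another all 34 in day 14 replicate 2. Its log2 change in XEN-iPS was 5.42 ± 0.67 SE (adjusted p = 6.31e-13) and turned to -0.53 with all 8 libraries, as that of Cxcl1 turned from 2.26 to -1.87.

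Ccl2 and Ccl7, monocyte chemokines encoded side by side, were higher in both XEN-iPS libraries than in the 6 others. Ccl2 stood at 177 and 1274, 95.9 and 380, 372 and 246, and 2294 and 1821 CPM for day 7, day 14, day 28 and XEN-iPS, and Ccl7 at 264 and 1253, 101 and 787, 589 and 787, and 1776 and 1819 CPM. The changes in XEN-iPS were 3.40 ± 0.64 SE for Ccl2 (adjusted p = 1.87e-05) and 2.62 ± 0.61 SE for Ccl7 (adjusted p = 0.00143) on the log2 scale, and with all 8 libraries they were 1.62 and 1.34 (adjusted p = 0.46 and 0.715).

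**Figure D3:**
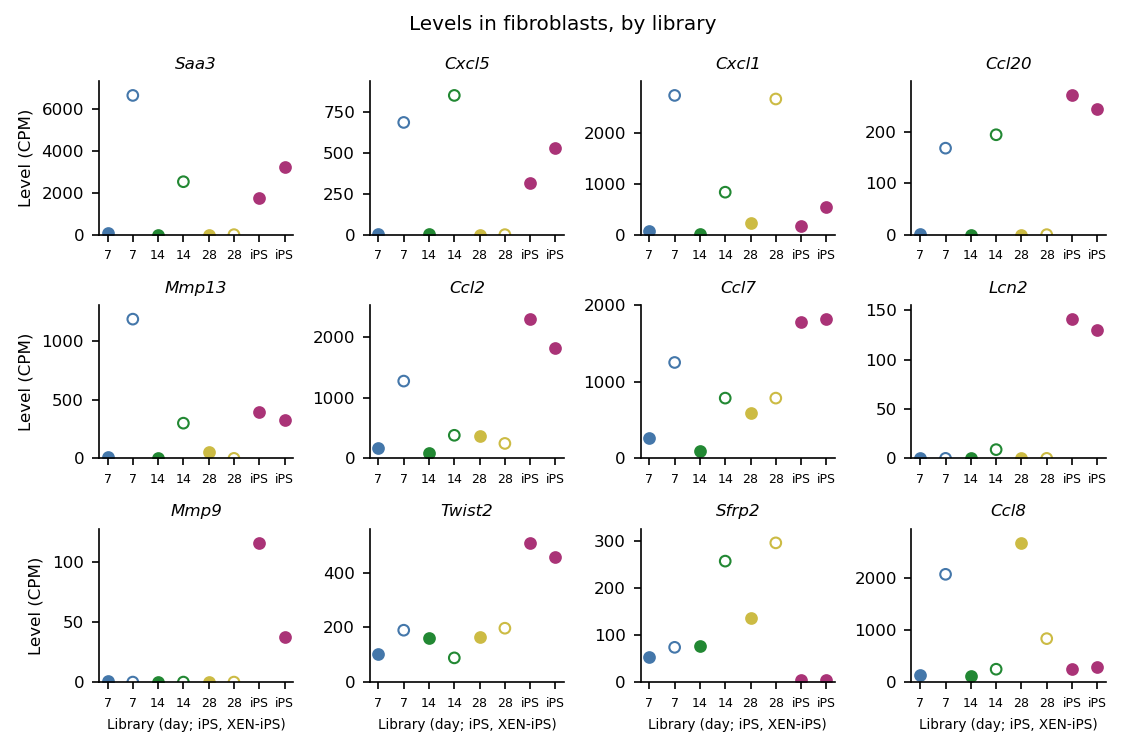
Level (CPM) in the fibroblasts of each library for 12 genes, mostly secreted; filled circles are libraries with 20 or more fibroblasts and open circles those with fewer, in the order replicate 1, replicate 2 for day 7, 14, 28 and XEN-iPS. The open circles of day 7 lie far above the filled ones for Saa3, Cxcl5, Cxcl1, Ccl20 and Mmp13, while Lcn2, Mmp9 and Twist2 are high and Sfrp2 is low in both XEN-iPS libraries.

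Lcn2 and Mmp9 were higher in both XEN-iPS libraries than in the 6 reprogramming libraries, as were 7.7% of 6521 genes. Day 28 replicate 2 is 1 cell with 20330 UMIs, so its 0 for either gene sets only a loose limit. Lcn2 (chr2:32384633-32388252, minus strand), which encodes the iron-siderophore carrier lipocalin 2, was at 0 in 5 of the 6 reprogramming libraries, at 8.84 CPM in day 14 replicate 2, a single UMI, and at 141 and 130 CPM in XEN-iPS. Against day 7 replicate 1, at 0, this was at least 154-fold higher with a floor of 3 UMIs in that library, and the call held with all 8 libraries (adjusted p = 8.1e-08). In XEN-iPS replicate 1 a single fibroblast held 99 of the 200 Lcn2 UMIs, and in replicate 2 they were spread over 485 of 1962 fibroblasts and also over 9.69% of the other cells. Mmp9, gelatinase B, was at 1.13 CPM in day 7 replicate 1, at 0 in the 5 other reprogramming libraries, and at 115 and 37.1 CPM in XEN-iPS (5.89 ± 0.70 SE on the log2 scale, adjusted p = 5.46e-14; 5.95 with all 8 libraries).

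The secreted Wnt modulator Sfrp2 (chr3:83766321-83774316, plus strand) went the other way. It was at 53.9 and 73.7 CPM at day 7, at 75.7 and 256 CPM at day 14, at 136 and 295 CPM at day 28, and at 3.52 and 3.80 CPM in XEN-iPS, so that the groups did not overlap, as for 3.44% of 6521 genes in this direction. The change was -4.03 ± 0.46 SE on the log2 scale (adjusted p = 2.23e-15) and -4.05 with all 8 libraries. Sfrp2 was carried by 27 of 235 fibroblasts at day 7 replicate 1 and by 45 of 1962 in XEN-iPS replicate 2. In the other cells it was at 4.32 CPM or less, and its change differed from theirs by -4.52 on the log2 scale (adjusted p = 2.76e-07).

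Twist2 (chr1:91801461-91848028, plus strand), a mesenchymal transcription factor of the rule itself, stood at 101 and 189 CPM at day 7, at 162 and 88.4 CPM at day 14, at 164 and 197 CPM at day 28, and at 508 and 457 CPM in XEN-iPS. Dcn, a rule gene that encodes the collagen-binding proteoglycan decorin, stood at 51.4 and 842 CPM at day 7, at 50.5 and 141 CPM at day 14, at 93.3 and 148 CPM at day 28, and at 482 and 193 CPM in XEN-iPS. Twist2 was higher in both XEN-iPS libraries than in the 6 others, and Dcn was highest in day 7 replicate 2. Since the rule counted both genes, they bear on which cells were kept and no test is given for them; with the rule genes left out of the fit, 283 genes were called in XEN-iPS.

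Of 15 genes of low oxygen and of metal stress tested, 5 were called higher and none lower in XEN-iPS fibroblasts, against 2.33% and 0.657% of all genes, with a median log2 change of 1.5 against 0.04 over all genes, and 8 of 15 were above all 6 other libraries in both XEN-iPS libraries, as were 7.70% of 6521 genes. Their summed level was 5099 and 6462 CPM in XEN-iPS and 1548 to 3653 CPM in the 6 others. In the other cells the list stood at 2229 and 1451 CPM at day 7, at 4478 and 5409 CPM at day 28 and at 4081 and 4583 CPM in XEN-iPS. Bnip3, a mitophagy receptor induced by HIF, stood at 13.0 and 31.6, 15.1 and 97.3, 26.8 and 148, and 125 and 190 CPM, and its change of 3.45 ± 0.54 SE held with all 8 libraries (3.28, adjusted p = 0.00318). The glucose transporter Slc2a1 was at 0 to 79.6 CPM in the reprogramming libraries and at 109 and 113 CPM in XEN-iPS (2.16, adjusted p = 0.000383), and the metallothionein Mt2 at 132 to 517 and at 859 and 1372 CPM (2.92, adjusted p = 0.000217). The lactate transporter Slc16a3 rose by 4.51 ± 0.58 SE (adjusted p = 4.06e-12) and also kept its call with all 8 libraries. Its groups overlapped, however. Day 14 replicate 2, with 14 of 113090 UMIs, lay above both XEN-iPS libraries, with 94 of 1419906 and 2204 of 20793129. Mt2 was at 1174 and 1360 CPM in the other cells of the XEN-iPS libraries as well. The metallothionein Mt1 was not called, and its groups overlapped. It was higher in the fibroblasts of day 28 replicate 1 (1883 of 857107 UMIs) than in those of XEN-iPS replicate 1 (2517 of 1419906). Vegfa, the endothelial growth factor, stood at 26.3 and 10.5, 5.05 and 26.5, 19.8 and 0, and 119 and 73.4 CPM; its change of 1.72 in fibroblasts (adjusted p = 0.00839) differed by 3.40 from that of the other cells (adjusted p = 1.12e-05), in which it went from 24.9 CPM in day 7 replicate 1 to 3.83 and 13.0 CPM in XEN-iPS.

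Interferon response genes gave a similar count with more overlap. Of 18 tested 6 were called higher and none lower (Ifi44, Ifit1, Ifit3, Ifitm1, Irf7 and Isg15), against 2.33% and 0.657% of all genes, with a median log2 change of 1.66. The list summed to 4833 and 5124 CPM in XEN-iPS but also to 5589 CPM in day 7 replicate 2 and 4191 CPM in day 14 replicate 2, while the first replicates of day 7 and day 14 were the 2 lowest of the 8, with 1464 CPM at day 14. Ifit1, an interferon-induced RNA-binding protein, stood at 17.2 and 10.5, 0 and 61.9, 15.2 and 0, and 99.3 and 220 CPM, and kept its call with all 8 libraries (3.19, adjusted p = 0.00358). Il6, a cytokine that signals through the same receptor subunit as LIF, was at 0 to 6.78 CPM in the 6 reprogramming libraries and had 71 UMIs in replicate 1 and 1136 UMIs (54.6 CPM) in replicate 2 of XEN-iPS (2.80 ± 0.56 SE, adjusted p = 6.99e-05; 2.95 with all 8 libraries).

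Of the 50 secreted signals tested, 6 were called higher (Angptl4, Dkk3, Fgf7, Il6, Rspo3 and Vegfa) and 2 lower (Sfrp2 and Tgfb2) in XEN-iPS, against 2.33% and 0.657% of all genes. Fgf7, a growth factor for epithelia, was at 8.84 to 73.7 CPM on the reprogramming days and at 175 and 79.9 CPM in XEN-iPS (2.15, adjusted p = 0.000664; 1.80 and adjusted p = 0.129 with all 8 libraries). None of the 13 collagen chains outside the rule that were tested, none of the 22 collagen assembly genes and none of the 25 p53 targets was called in XEN-iPS. A missed threshold in a fit of this size does not show that they were equal. Among 8 pluripotency genes tested, 7 were called higher in the XEN-iPS fibroblasts, where mixed barcodes were 39.7% and 32.6% of the fibroblasts and these genes were at 10652 and 9614 CPM in the other cells; with mixed barcodes left out 242 genes were called in all, and of the pluripotency genes only Dppa5a passed the filter on low counts and was called higher. Those barcodes were set apart by UMIs of such genes, so their removal lowers these counts by construction.

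**Figure D4:**
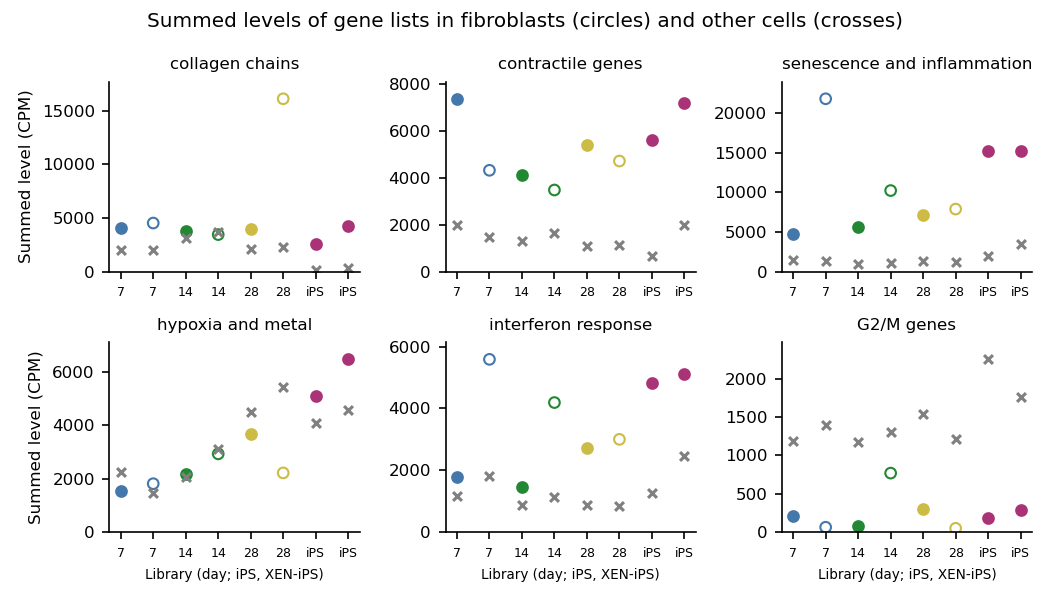
Summed level (CPM) of 6 gene lists in each library; circles are the fibroblasts (open where fewer than 20 cells) and crosses the other cells. Among the fibroblasts the hypoxia and metal list is highest in both XEN-iPS libraries, while the other cells of day 28 replicate 2 reach 5409 CPM; the senescence and inflammation list of day 7 replicate 2 (21778 CPM) is above both XEN-iPS libraries, and the G2/M list of the fibroblasts is below that of the other cells.

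The remaining genes named by rule for XEN-iPS included several that followed 1 library. In the fibroblasts of XEN-iPS replicate 2 Gm5218 stood at 496 CPM and in its other cells at 748 CPM, against 0 to 2.33 CPM in the fibroblasts of the rest. The pseudogene Rps2-ps6 stood there at 0.818 and 0.805 CPM, against 257 to 741 CPM in the fibroblasts of the rest. XEN-iPS replicate 2 carries a sequencing project number that no other of the 8 libraries carries, and both genes moved the same way in all of its cells; pseudogenes and predicted genes such as these, Gm10260 and Gm5786 can share reads with near-identical copies, so their values are uncertain. Nme2, a nucleoside diphosphate kinase with a close neighbour gene of similar sequence, fell by 2.22 on the log2 scale and is uncertain for the same reason.

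Cebpd, a transcription factor of the acute-phase response, was at 3.67 and 168 CPM at day 7, at 35.3 and 186 CPM at day 14, at 24.5 and 49.2 CPM at day 28, and at 109 and 85.8 CPM in XEN-iPS. It was called higher in XEN-iPS (4.57 ± 0.57 SE, adjusted p = 1.46e-12) and followed the same split of the duplicates, with 1.44 and no call over all 8 libraries. Pbld2 stood at 163 and 274, 182 and 79.6, 149 and 0, and 48.6 and 9.57 CPM; it fell by 2.75 in XEN-iPS (adjusted p = 4.9e-07), and by 2.94 with all 8 libraries. Acta1 was called lower in XEN-iPS and at day 14, by 3.20 and 3.61 on the log2 scale, from 614 CPM in day 7 replicate 1, but day 7 replicate 2 had 0 CPM. Cpxm1, a secreted carboxypeptidase-like protein, fell by 1.64 in XEN-iPS (adjusted p = 0.0107), from 101 CPM in day 7 replicate 1 to 45.1 and 28.1 CPM.

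**Figure D5:**
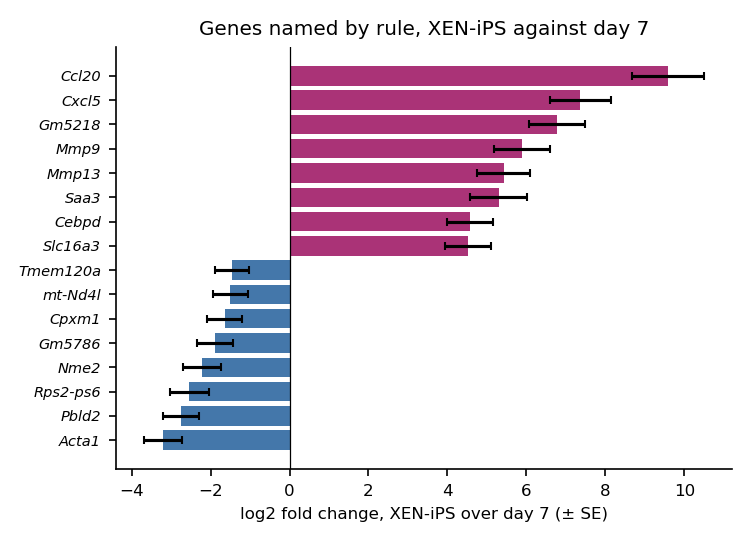
Log2 fold change (± SE) between XEN-iPS and day 7 fibroblasts in the 5-library fit for the 16 genes named by rule. Ccl20 (9.59) and Cxcl5 (7.36) have the largest increases and Acta1 (-3.20) the largest decrease; the bars rest on day 7 replicate 1, whose duplicate reversed Saa3 and Mmp13.

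At day 14 the changes rested on very few cells. The neuropeptide gene Npy stood at 7.06 CPM in day 7 replicate 1 and at 101 CPM in day 14 replicate 1 (3.69 ± 0.87 SE, adjusted p = 0.0182), but 20 of its 20 UMIs were in 1 of 24 fibroblasts, and day 14 replicate 2 had 0. Cck, the cholecystokinin gene, stood at 47.7 and 0 CPM at day 7 and at 323 and 17.7 CPM at day 14 (2.61 ± 0.57 SE, adjusted p = 0.00625), with 35 of 64 UMIs in a single fibroblast. None of the 31 senescence and inflammation genes, 50 secreted signals and 20 other fibroblast markers tested was called at day 14, where 0.136% of all genes were, so these counts do not set the lists apart. Day 7, day 14 and XEN-iPS replicate 1 carry the same sequencing project number.

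Some markers of the other cells were higher in the day 28 fibroblasts. Mixed barcodes were 17.2% of the fibroblasts of day 28 replicate 1 and 0.851% of those of day 7 replicate 1. Dppa5a, called at 4.50 (adjusted p = 3.56e-07), stood at 4.52 and 0 CPM at day 7 and at 108 and 49.2 CPM at day 28. The laminin chain Lama1, called at 3.03 (adjusted p = 0.00047), stood at 9.60 and 0 CPM and at 82.8 and 49.2 CPM. All 10 endoderm genes tested had a change above 0, with a median of 2.34 against -0.05 over all genes; 1 of the 10 and 1 of 8 pluripotency genes were called higher, against 0.323% of all genes. Without mixed barcodes 36 genes were called at day 28.

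At day 28 the monocyte chemokine Ccl8 was the most increased gene named by rule. It stood at 137 and 2074 CPM at day 7, at 121 and 248 CPM at day 14, at 2679 and 836 CPM at day 28, and at 251 and 281 CPM in XEN-iPS. In day 28 replicate 1 a single fibroblast held 1227 of 2296 Ccl8 UMIs, and in day 7 replicate 2 a single fibroblast held 190 of 197. The change of 4.21 ± 0.70 SE (adjusted p = 2.25e-06) was 4.31 without mixed barcodes and fell to 0.77 with all 8 libraries. Apoe, the lipid carrier of lipoproteins, stood at 25.4 and 21.1 CPM at day 7, 25.2 and 398 CPM at day 14, 217 and 246 CPM at day 28, and 28.9 and 25.9 CPM in XEN-iPS; both day 28 libraries lay above both day 7 libraries, and all 45 UMIs of day 14 replicate 2 were in 1 cell. Its change was 3.01 ± 0.53 SE (adjusted p = 1.25e-05) and 2.98 with all 8 libraries (adjusted p = 0.0984), and the other cells of day 28 had 667 and 593 CPM.

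S100a4, a calcium-binding protein of motile fibroblasts, stood at 51.1 and 21.1, 65.6 and 26.5, 317 and 0, and 64.1 and 269 CPM, and was called at day 28 (2.55 ± 0.59 SE, adjusted p = 0.00814). With all 8 libraries it was 2.31 (adjusted p = 0.626), and without day 28 replicate 1 its direction turned, since the 1 cell left had no UMI. The matrix calcification inhibitor Mgp stood at 31.3 and 0, 0 and 398, 169 and 0, and 34.5 and 112 CPM, with 2.35 ± 0.53 SE at day 28 (adjusted p = 0.00553). It was 2.28 with all 8 libraries (adjusted p = 1), turned in the same way without day 28 replicate 1, and 63 of its 111 UMIs in day 7 replicate 1 and all 45 in day 14 replicate 2 were in 1 cell each. The stromelysin Mmp3 stood at 37.0 and 421 CPM at day 7 and at 230 and 0 CPM at day 28, and Spp1 at 71.5 and 1758 CPM at day 7 and at 566 and 0 CPM at day 28; both were called higher at day 28, by 2.56 and 2.91, and both changed sign with all 8 libraries. In day 7 replicate 2 a single fibroblast held 161 of 167 Spp1 UMIs, and in day 28 replicate 1 another held 117 of 197 Mmp3 UMIs. Of the 31 senescence and inflammation genes, Mmp3 and Mmp13 were called higher and Has2 and Saa3 lower at day 28 (0.323% and 0.115% of all genes), where Saa3 fell to 0 from the 199 UMIs of day 7 replicate 1, 197 of them in a single fibroblast, and was not called without that cell (adjusted p = 1). Of 16 contractile genes 2 were called lower at day 28, the smooth muscle genes Actg2 and Cnn1, against 0.115% of all genes. Actg2 stood at 82.7 and 21.1 CPM at day 7 and at 19.8 and 344 CPM at day 28, the last of them 7 UMIs of 1 cell, and Cnn1 at 80.8 and 0 CPM and at 12.8 and 0 CPM. Both calls were lost with all 8 libraries, and without day 7 replicate 1 the change of Actg2 turned from -2.14 to 1.20. The list summed to 7384 and 4326 CPM at day 7 and to 5390 and 4722 CPM at day 28. Day 28 carries a different sequencing project number from day 7, so project and time cannot be told apart.

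Whether a change in the fibroblasts differed from that of the other cells of the same libraries was tested as an interaction over 16592 genes. It was called for 92 genes from day 7 to day 14 (0.554%), for 167 to day 28 (1.01%) and for 864 to XEN-iPS (5.21%). For Saa3 in XEN-iPS the difference was -3.81 on the log2 scale (adjusted p = 2.14e-08), while the other cells went from 0.270 CPM in day 7 replicate 1 to 36.8 and 519 CPM. Its direction rested on 1 day 7 fibroblast: without that cell the difference was 2.81 (adjusted p = 0.506). For Lcn2, Ccl2, Ccl20, Cxcl5, Mmp9 and Mmp13 the difference did not pass (adjusted p from 0.817 to 1), and their levels in the other cells were 1.64 to 33.6 CPM in XEN-iPS replicate 1 and 3.59 to 206 CPM in replicate 2. The fibroblast markers of the other cells moved with them, summing to 253 CPM in XEN-iPS replicate 1 and to 1415 CPM in replicate 2; the part of RNA from fibroblasts in these values was not tested.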

How the data were processed

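The series held 20 single-cell libraries (10x Genomics 3′ v2). The authors aligned reads to the mouse genome GRCm38/mm10 and collapsed them to UMIs with SEQC, removed cells with over 20% mitochondrial UMIs and cells of low complexity, and deposited a table per library of counts of UMIs, not normalized, per cell and gene. For their XEN-to-iPS analysis the authors also took out a cluster with a fibroblast signature, which the paper describes as likely feeder cells. Whether that cluster matches the cells examined here was not tested. A column of the authors' cluster numbers in each file was not used. Gene symbols and places came from GENCODE vM21 (GRCm38).

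Cells with 500 or more genes were kept. Members and gene lists were chosen with earlier results of these data known. CPM is the UMIs of a gene summed over the cells of a class, per 1000000 UMIs of that class. UMIs come from 3′ ends, so levels are compared between libraries and classes and not between genes. Sums per library were fitted with edgeR 4.0.16 (R 4.3.3; filterByExpr, TMM, glmQLFit, glmQLFTest, Benjamini-Hochberg) with condition as the only term, and for the interaction over fibroblast and other sums with library as a term. Libraries with under 20 fibroblasts were left out: day 7 replicate 2, day 14 replicate 2 and day 28 replicate 2. The SE is the log2 change divided by the root of F. Thinning drew 2000 UMIs per cell from at most 1500 cells. The scripts were tested on simulated data. There the fibroblast fit recovered 0% of 2-fold changes at day 14 and at day 28 and 6.67% in XEN-iPS. Of 4-fold changes it recovered 10% at day 14, 26.7% at day 28 and 56.7% in XEN-iPS, so a gene not called may have changed.

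Named genes were the 8 called genes with the highest and the 8 with the lowest change per comparison, at a mean of 50 CPM or more and not over 5 times higher in the other cells; beside them stand members of the lists, and 20 genes by level. Where fewer are named, fewer were called. Alternatives with all 8 libraries, the replicate block, other cells without rule UMIs, 1 day 7 fibroblast left out and fits leaving out a library were added after seeing the data.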

Additional observations from a re-analysis of the deposited data

Results flagged for a closer look

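Cells that met the same rule were found outside the feeder plates. ES replicate 1, which per the methods grew on gelatin, held 11, iXEN replicate 1 held 12 and iXEN replicate 2 held 2, while the other 9 libraries outside the 8 examined held 0. In ES replicate 1, 8 of the 11 were mixed barcodes.

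Several genes named by rule changed by different amounts in the fibroblasts and in the other cells of the same libraries, by the test of the difference itself. At day 14 Npy differed by 6.59 on the log2 scale, with all its day 14 UMIs in 1 fibroblast. At day 28 Ccl8 differed by 2.85 and S100a4 by 3.10, and both were called higher in the fibroblasts. Lce1h differed by 4.06 but was called lower in the fibroblasts, with a log2 change of -3.29, so the other cells fell further. In XEN-iPS Saa3 differed by -3.81, which turned to 2.81 (adjusted p = 0.506 by edgeR) without the 1 day 7 fibroblast that held 197 of 199 UMIs, while Pbld2 differed by -2.55 and Cpxm1 by -2.39. What lies behind these differences was not tested.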

How the results depend on the processing

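The number of called genes depended on the libraries in the fit. At day 14, 13 genes became 5 with RLE normalization, 1 with DESeq2, 5 without mixed barcodes and 25 with the replicate block over all 8 libraries, and 0 to 108 when a library was left out of the 8. At day 28, 42 became 20 with RLE, 7 with DESeq2, 9 with all 8 libraries and 16 with the replicate block, and 0 to 19 with a library left out. For XEN-iPS, 286 became 46 with DESeq2, 62 with all 8 libraries and 90 with the replicate block, and 0 to 131 with a library left out. For the difference from the other cells, taking only others with no rule UMI moved the share of genes called at day 14 and in XEN-iPS from 0.554% and 5.21% to 0.323% and 9.87%, and leaving out a library of the 8 gave 0.0481% to 0.531% at day 14, 0.210% to 0.603% at day 28 and 2.44% to 7.93% in XEN-iPS. The share of fibroblasts, 6.35%, became 0.208% at 1% of UMIs, 5.49% at 10 UMIs, 4.51% without mixed barcodes, 5.24% without Col1a1 or 4.95% without Col1a2 in the sum, and 1.51% without XEN-iPS replicate 2. Over 2526 genes the deviations of same-numbered libraries correlated at 0.294 between day 7 and day 14 and from -0.0502 to 0.116 for the other pairs, so the numbers were not taken to pair the libraries and pairing stays unsettled; the replicate block moved the calls over 8 libraries from 14, 9 and 62 to 25, 16 and 90. Of 496 values for named genes with no library left out, 381 kept call and direction and 105 kept the direction only. These totals pool settings that differed widely in what they kept. With the rule genes left out 52 values kept both, with 1 day 7 fibroblast left out 51 and with mixed barcodes left out 49. RLE normalization kept both for 35, the replicate block for 28, DESeq2 for 21 and all 8 libraries for 11. With all 8 libraries 32 values kept the direction only and 7 changed sign. With all 8 libraries these changed sign: at day 28 Cebpd (-0.46), Mmp13 (-3.56; -1.36 with the replicate block), Mmp3 (-0.15) and Spp1 (-1.20; -0.88 with the block); in XEN-iPS Cxcl1 (-1.87; -0.39 with the block), Mmp13 (-0.53) and Saa3 (-0.34). Leaving out a library of the 8 gave, on the log2 scale, for day 14 Acta1 -5.60 to 9.91, Cck -1.47 to 12.24 and Lce1h -11.73 to 0; for day 28 Actg2 -1.75 to 1.83, Ccl8 -0.77 to 3.51, Cebpd -2.64 to 2.68, Cnn1 -10.88 to 8.33, Lce1h -11.08 to 8.04, Mgp -9.66 to 11.75, Mmp13 -13.90 to 2.40, Mmp3 -12.40 to 2.03, S100a4 -10.42 to 3.49 and Spp1 -14.58 to 2.19; and for XEN-iPS Acta1 -3.21 to 10.97, Cebpd -0.69 to 4.57, Cxcl1 -2.87 to 2.26, Cxcl5 -0.60 to 7.36, Mmp13 -1.62 to 5.42, Prl2c3 -5.28 to 6.60, Saa3 -1.32 to 5.30 and Spp1 -0.067 to 4.31. Values of 8 or more rest on a group listed at 0. The cause was not tested. Some fits left no groups to compare or no residual degree of freedom and were not run. These were at 1% of UMIs, with the block in 5 libraries, and with only the compared libraries for day 14 and day 28. Fits leaving out a library of the 5 were not run either. Those without day 14 replicate 1 or day 28 replicate 1 would have kept the XEN-iPS pair and a residual degree of freedom.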
